A study of Mus musculus with 9 samples.

Results

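The interleukin genes described here are 10 members of the cytokine output of dendritic cells: Il12a, Il12b, Il27, Ebi3, Il1b, Il18, Il15, Il15ra, Il6 and Il10. They were taken by exact gene symbol from the 40879 symbols listed for every library, and all 10 were present. Mouse bone marrow was cultured for 9 days with 100 ng/ml of Flt3L, a growth factor for dendritic cells, and conventional type 2 dendritic cells (cDC2s) were then purified by cell sorting. There were 3 groups of 3 libraries. The WT group was wild type without added interferon per its title, and the WT+IFNa group was wild type with interferon alpha added on day 5. The A20iKO group carried a floxed A20 gene (A20fl/fl) and a Cre driven by the CD11c promoter, so that deletion is directed to CD11c-expressing cells and not to every cell of the culture. A20, encoded by Tnfaip3, is a ubiquitin-editing enzyme that restrains NF-kappaB signalling. A protocol entry gives the day 5 interferon for all 9 libraries, whereas the titles and the treatment entries give it for 3 libraries, and the titles were used. Animal ages were not stated.

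Several of these proteins work as pairs. Il12b encodes p40, which joins p35 (Il12a) to form IL-12, the cytokine that directs T cells and NK cells towards interferon gamma, and joins p19 (Il23a) to form IL-23. Ebi3 joins p28 (Il27) to form IL-27, and IL-15 is presented to NK cells and memory CD8+ T cells on the IL-15 receptor alpha chain (Il15ra) by the cell that makes it. IL-1 beta and IL-18 are made as inactive precursors that are cut after inflammasome activation, IL-6 is a broad inflammatory cytokine, and IL-10 is inhibitory.

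The promoter windows of 4 members are shown because these genes had different behaviour in the libraries: Il12b was high in both the WT+IFNa and A20iKO groups, Il1b and Il6 were high in the A20iKO group, and Ebi3 overlapped across the groups. Each is the 250 bases before the gene's start in the RefSeq table (GRCm38.p6, not the GRCm39 build of the counts), written 5′ to 3′ on the gene's strand. Il12b lies at chr11:44399813-44400062 (plus strand), Il1b at chr2:129371140-129371389 (minus strand), Il6 at chr5:30012864-30013113 (plus strand) and Ebi3 at chr17:55952373-55952622 (plus strand). Capitals mark matches to 4 motifs.
Il12b: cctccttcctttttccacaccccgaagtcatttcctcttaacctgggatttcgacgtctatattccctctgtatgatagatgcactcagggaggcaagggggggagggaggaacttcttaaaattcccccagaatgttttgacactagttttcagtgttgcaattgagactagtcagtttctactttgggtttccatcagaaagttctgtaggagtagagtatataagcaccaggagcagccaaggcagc
Il1b: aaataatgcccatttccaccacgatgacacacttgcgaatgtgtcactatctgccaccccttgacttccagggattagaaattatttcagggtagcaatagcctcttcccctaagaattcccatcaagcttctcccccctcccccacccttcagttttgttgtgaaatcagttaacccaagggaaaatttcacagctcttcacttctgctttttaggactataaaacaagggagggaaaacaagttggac
Il6: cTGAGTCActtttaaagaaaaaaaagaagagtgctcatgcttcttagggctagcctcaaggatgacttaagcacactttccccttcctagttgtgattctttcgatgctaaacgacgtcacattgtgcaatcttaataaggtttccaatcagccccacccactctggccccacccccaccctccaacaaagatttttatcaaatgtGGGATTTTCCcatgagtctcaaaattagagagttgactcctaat
Ebi3: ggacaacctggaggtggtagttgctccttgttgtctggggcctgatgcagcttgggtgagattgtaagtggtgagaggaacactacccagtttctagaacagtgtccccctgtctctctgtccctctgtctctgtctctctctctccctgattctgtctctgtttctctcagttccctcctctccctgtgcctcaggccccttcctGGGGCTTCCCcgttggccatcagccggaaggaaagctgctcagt
In Il6 the capitals are an AP-1 match (TGANTCA) and a match to the kappaB consensus, and in Ebi3 they are a match to the kappaB consensus. Both strands were searched, also for GAAA followed after any 2 bases by GAAA, a string bound by IRF-family factors, and for the GAS string TTCNNNGAA. The kappaB consensus was found in 3.9% of the table's 32851 promoters, TGANTCA in 6.75%, the paired GAAA in 2.98% and TTCNNNGAA in 7.02%. None of these 4 motifs was found in the Il12b and Il1b windows, which says only that these letters are not there. A further kappaB half-site string, chosen with knowledge of the Il12b promoter, was also searched and matched in the Il12b window. It is not marked and its share over all promoters is not given, so nothing is drawn from that match. The table matched 7 of the 10 members. Il10, Il15 and Il27 were not matched.

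RNA was counted by a 3′ tag method, which reads transcripts at their 3′ ends only, so that long transcripts gain no extra reads. Totals ranged from 6900598 to 10552756 counts per library. Levels are given as CPM, counts scaled to a common library total with TMM factors, errors as the SD of 3 libraries, and adjusted p-values come from edgeR's quasi-likelihood test with Benjamini-Hochberg adjustment over 13251 genes, called at 0.05. The targeted gene, Tnfaip3, had 11.3 ± 10 CPM in WT (SD, n = 3), 9.56 ± 1.53 in WT+IFNa and 43.7 ± 8.98 in A20iKO, 1.95 higher than WT on the log2 scale (edgeR adjusted p = 0.028). Which part of the gene is deleted was not stated, and a 3′ tag may lie outside it, so this level does not check the knockout label. The call was lost in 6 of 19 alternative settings, among them without WT replicate 2 or 3 (adjusted p = 0.0718 and 0.0776) and without A20iKO replicate 2 or 3 (0.113 and 0.0645), and the log2 difference was 2.99 without WT replicate 1. A reference list of 12 interferon-stimulated genes summed to 93.5 to 103 CPM in WT, 2577 to 3066 in WT+IFNa and 638 to 811 in A20iKO. WT thus lay far below WT+IFNa, as the titles have it. For A20iKO the sum does not tell whether interferon was added. Dendritic cell markers (13 genes) were detected in every library. Their summed level was 31143 to 40326 CPM in WT, 22652 to 26677 in WT+IFNa and 15686 to 17709 in A20iKO. Most of it came from H2-Aa, H2-Ab1, H2-Eb1 and Cd74. In A20iKO against WT, 11 were called lower and 1 higher, beside 4.91% and 5.77% of all tested genes. In WT+IFNa against WT, 5 were called lower, beside 0.702%. Cd209a averaged 331 CPM in WT, 114 in WT+IFNa and 11.0 in A20iKO, and Clec10a 516, 484 and 103. Sirpa went the other way, at 170, 198 and 456. Markers of connective tissue stroma (12 genes) summed to 762 to 4549 CPM in WT, 601 to 4726 in WT+IFNa and 472 to 4327 in A20iKO, with the highest value in WT replicate 2, WT+IFNa replicate 3 and A20iKO replicate 1.

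**Figure D1:**
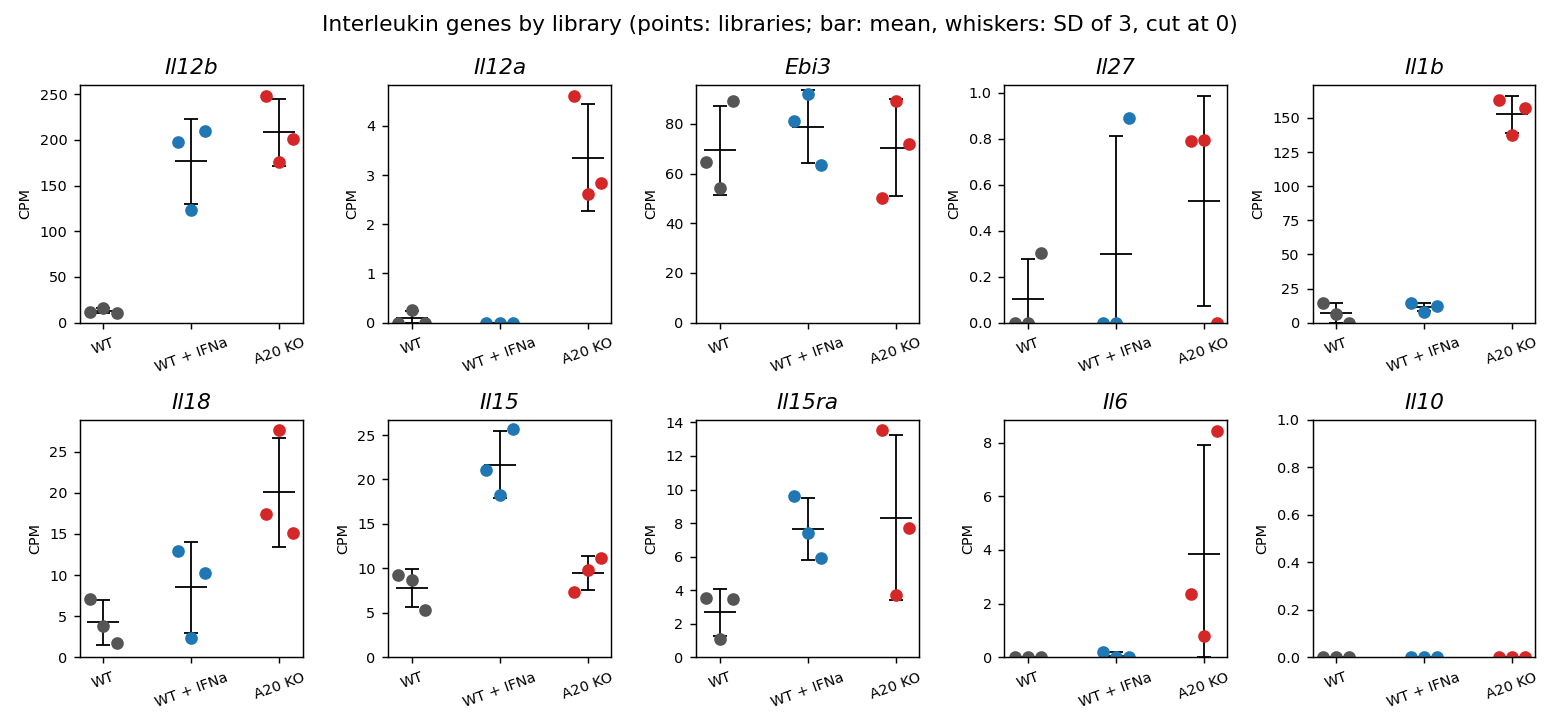
Levels of the 10 interleukin genes by library (CPM, linear axes, a panel with its own scale for each gene), coloured by group, with 3 libraries per group. Bars give the mean and whiskers the SD. Il12b sits far above WT in both other groups, Il1b is high in the A20iKO libraries, Il15 is highest in WT+IFNa, and Ebi3 overlaps across all 3 groups.

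Interferon alpha was set against WT to find which interleukin genes it changes. Il12b rose and was the 1 member called higher of the 7 that passed the filter on low counts, where 2.4% of all tested genes were called higher and 0.702% lower. Il15 and Il15ra were higher in every WT+IFNa library than in every WT library, but did not pass the test, beside 9.77% of all tested genes with such a separation upwards and 8.45% downwards. The transcript for the p35 partner of Il12b was not detected in any WT+IFNa library. The median log2 difference over the 7 tested members was 1.00, and 1.23 without Il12a, which passed the filter on its A20iKO counts alone, beside -0.03 over all tested genes. In these bulk libraries, fewer or more cells of a type and less or more RNA per cell cannot be told apart.

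The A20iKO libraries were set against the same 3 WT libraries, so the 2 comparisons share their controls. Il12b and Il1b rose, 2 of the 7 members tested, where 5.77% of all tested genes were called higher and 4.91% lower. Il12a, Il18 and Il15ra were higher in every A20iKO library than in every WT library without passing the test (15.4% of all tested genes were separated upwards and 12.6% downwards). Il6, which was too low overall for the test, was counted in all 3 A20iKO libraries and in no WT library. Il15 and Ebi3 had values that overlapped those of WT. The median log2 difference over the 7 tested members was 2.23, and 1.92 without Il12a, beside -0.01 over all tested genes.

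The A20iKO and WT+IFNa libraries were also compared directly. Il1b was the 1 member called higher in A20iKO, where 2.05% of all tested genes were called higher and 3.41% lower. Il12b was at levels that overlapped, and Il15 was lower in each A20iKO library than in any WT+IFNa library without passing the test (12.3% of all tested genes were separated downwards and 12.3% upwards). The median log2 difference over the 7 tested members was 0.24, and 0.18 without Il12a, beside 0.02 over all tested genes.

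**Figure D2:**
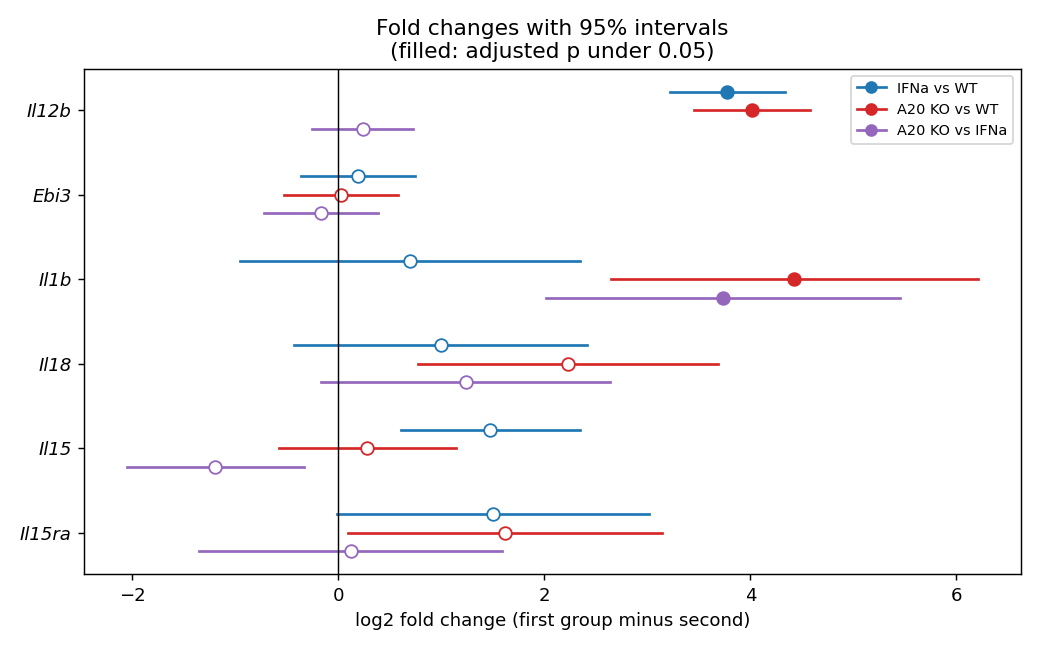
Log2 fold changes of the tested members other than Il12a in the 3 comparisons, with bars for the 95% interval of edgeR's fit. Il12b lies at 3.78 and 4.02 against WT, Il1b at 4.43 in A20iKO against WT, and the intervals of Ebi3 include 0 in all 3 comparisons.

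The p40 gene Il12b rose in both groups against WT. Its level was 11.7, 16.1 and 11.0 CPM in WT replicates 1, 2 and 3, 197, 123 and 209 CPM in WT+IFNa, and 248, 175 and 201 CPM in A20iKO. Every library of the latter groups was above every WT library, and the WT+IFNa and A20iKO libraries overlapped each other. Against WT, Il12b was 13.7-fold higher in WT+IFNa (log2 3.78, SE 0.258, 95% interval 3.22 to 4.34, edgeR adjusted p = 1.51e-06) and 16.2-fold higher in A20iKO (log2 4.02, SE 0.26, interval 3.45 to 4.58, edgeR adjusted p = 9.0e-07). The direct difference between A20iKO and WT+IFNa was 0.24 on the log2 scale, with an interval of -0.25 to 0.73 (edgeR adjusted p = 0.745), which does not show that the levels are alike. Both calls against WT held in 19 of 19 alternative settings.

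The p35 gene Il12a, which supplies the other chain of IL-12, was far lower than Il12b. It had 0, 2 and 0 counts in WT, no count in the 3 WT+IFNa libraries, and 35, 23 and 27 counts in A20iKO. In CPM the A20iKO values were 4.6, 2.61 and 2.84, and each exceeded every library of the other groups. Over the pooled libraries Il12a was 45.1-fold higher in A20iKO than in WT, with a counting interval of 12.1 to 379 that rests on 2 WT counts and covers counting error only (edgeR adjusted p = 0.145). Against WT+IFNa it was at least 26.8-fold higher, taking 3 counts over the WT+IFNa group as the floor (edgeR adjusted p = 0.0897). Il12a was called against WT in 1 of 19 alternatives, with adjusted p from 0.0427 to 0.306, and against WT+IFNa in 4 of 19, with adjusted p from 0.0122 to 0.264. The floor of 3 counts in the WT+IFNa group corresponds to 0.122 CPM. Il12b was thus above 100 CPM in each WT+IFNa library without a detected p35 count, and in A20iKO there were 53.9, 67.1 and 70.6 Il12b counts for each Il12a count. The p19 gene Il23a, singled out after its values were seen, had no count in any of the 9 libraries.

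**Figure D3:**
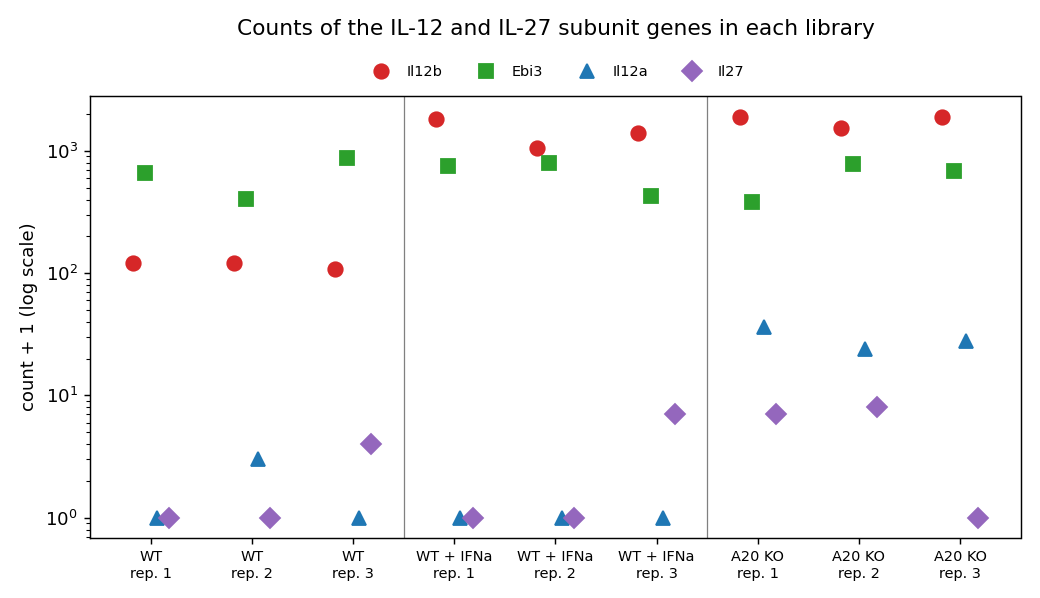
Deposited counts plus 1 (log axis) of the genes for paired cytokine chains, by library and group. In A20iKO, Il12a reaches 35, 23 and 27 counts beside 1888, 1544 and 1907 for Il12b, whereas WT+IFNa has Il12b counts of 1061 to 1809 and no Il12a count.

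Of the IL-27 pair, Ebi3 was abundant in every library and its p28 partner was nearly absent. Ebi3 was at 64.7, 54.3 and 89.0 CPM in WT, 81.3, 92.1 and 63.3 CPM in WT+IFNa, and 50.2, 89.2 and 71.7 CPM in A20iKO. The 3 groups overlapped. The log2 difference from WT was 0.19 in WT+IFNa (interval -0.37 to 0.74, edgeR adjusted p = 0.877) and 0.02 in A20iKO (interval -0.53 to 0.57, edgeR adjusted p = 0.98), and the sign of the latter turned in 6 of 19 alternative settings. Il27 had 0, 0 and 3 counts in WT, 0, 0 and 6 in WT+IFNa, and 6, 7 and 0 in A20iKO, too few for a test or a ranking of groups. Ebi3 was the highest of the 10 members in WT, with 3.38 to 8.11 Ebi3 counts per Il12b count. In the other groups Il12b passed it, with 0.302 to 0.749 Ebi3 counts per Il12b count in WT+IFNa and 0.202 to 0.509 in A20iKO.

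Il1b, the precursor gene of IL-1 beta, rose in A20iKO. It was at 14.6, 6.55 and 0 CPM in WT, 14.4, 8.11 and 11.9 CPM in WT+IFNa, and 163, 138 and 157 CPM in A20iKO. The lowest A20iKO library was far above the highest of the others, while WT and WT+IFNa overlapped, and WT replicate 3 had no Il1b count beside 149 and 49 counts in the other WT libraries. A20iKO was 21.5-fold higher than WT (log2 4.43, SE 0.824, interval 2.64 to 6.21, edgeR adjusted p = 0.00334). This call held in 19 of 19 alternative settings, but its size moved with the uneven WT libraries: the log2 difference was 5.62 without WT replicate 1, 3.83 without WT replicate 3 and 6.58 with limma voom. Against WT+IFNa, Il1b was 13.3-fold higher in A20iKO (log2 3.73, SE 0.795, interval 2.01 to 5.45, edgeR adjusted p = 0.0139). That call was lost without WT+IFNa replicate 1, 2 or 3 (adjusted p = 0.0572, 0.0876 and 0.0504) and when the library highest in stromal markers was left out of each group (0.0667), in a range of 3.08e-35 to 0.0876 over 19 alternatives. WT+IFNa differed from WT by 0.69 on the log2 scale with an interval of -0.96 to 2.34 (edgeR adjusted p = 0.826), and by 1.88 without WT replicate 1, 0.10 without WT replicate 3 and 2.82 with limma voom, with adjusted p from 0.235 to 0.968 over 19 alternatives.

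Markers of monocytes and macrophages, cells that also make Il1b, were mostly higher in A20iKO, with 2 exceptions. The 12 marker genes, each counted in every library, summed to 1214 to 1520 CPM in WT, 2025 to 2497 in WT+IFNa and 2447 to 2587 in A20iKO. In A20iKO against WT, 9 of the 12 were called higher and 1 lower, and in WT+IFNa against WT 4 were called higher and 2 lower. For this and the next marker lists, the shares of all tested genes were 5.77% higher and 4.91% lower in A20iKO against WT. In WT+IFNa against WT they were 2.4% and 0.702%. In WT+IFNa the monocyte sum lay above WT, and Il1b overlapped WT. That sum leans on Ly6c2, which rose most in CPM, with means of 26.0 in WT, 679 in WT+IFNa and 741 in A20iKO. In WT+IFNa, Lyz2 was lower than in WT (129 against 364 CPM on average), as was Adgre1 (38.4 against 92.5). Against WT, 10 of the 12 were higher in every A20iKO library and 2 lower in every one (15.4% and 12.6% of all tested genes). The 2 were Adgre1 (37.1 against 92.5 CPM on average) and Ccr2 (567 against 773). Neutrophil markers (10 genes, each counted in every group but 6 of them at 0 in single libraries) summed to 93.8 to 116 CPM in WT, 321 to 380 in WT+IFNa and 224 to 332 in A20iKO. They did not move together: in A20iKO against WT, Mpo, Prtn3 and Csf3r were called higher and S100a8 and S100a9 lower, with a median log2 difference of -1.78. Mast cell and basophil markers (6 genes) summed to 29.4 to 66.7 CPM in WT, 103 to 167 in WT+IFNa and 177 to 199 in A20iKO, with 3 of 5 tested called higher in A20iKO against WT. Markers of type 1 dendritic cells (8 genes) summed to 412 to 500 CPM in WT, 221 to 259 in WT+IFNa and 55.4 to 96.6 in A20iKO, with 4 called lower. Plasmacytoid dendritic cell markers (8 genes) summed to 684 to 805 CPM in WT, 955 to 1091 in WT+IFNa and 905 to 1173 in A20iKO. Of the 7 tested, 5 were called higher and 1 lower in A20iKO against WT. The part of any of these cells in the interleukin levels was not tested.

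Il18, the other inflammasome-cut cytokine, was less abundant. Its level was 7.16, 3.88 and 1.73 CPM in WT, 13.0, 2.32 and 10.3 CPM in WT+IFNa, and 17.5, 27.6 and 15.1 CPM in A20iKO. All A20iKO libraries were above all others, and WT overlapped WT+IFNa. The log2 difference of A20iKO from WT was 2.23 (SE 0.673, interval 0.77 to 3.69) and missed the threshold (edgeR adjusted p = 0.0523), with 8 of 19 alternatives calling it, among them without WT replicate 1 (0.0369) and without WT+IFNa replicate 2 (0.0285), and a range of 0.00549 to 0.200. Against WT+IFNa the difference was 1.23 (interval -0.17 to 2.64, edgeR adjusted p = 0.391). Il18 overlaps Bco2 on the opposite strand in the GENCODE M21 annotation, and whether counting used strand was not stated. Bco2 itself had 4.19 CPM in WT, 3.59 in WT+IFNa and 1.90 in A20iKO on average. In A20iKO there were 4.99 to 10.4 Il1b counts per Il18 count.

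Neither Il15, the cytokine gene, nor Il15ra, its presenting chain, passed the test in any comparison, so a difference in their patterns is not shown. Il15 was at 9.32, 8.69 and 5.38 CPM in WT, 21.0, 18.3 and 25.7 CPM in WT+IFNa, and 7.36, 9.87 and 11.2 CPM in A20iKO. The WT+IFNa libraries stood above all others and the A20iKO libraries overlapped WT. WT+IFNa was 1.47 higher than WT on the log2 scale (SE 0.402, interval 0.60 to 2.34), which did not pass after adjustment (edgeR adjusted p = 0.0774) and was called in 2 of 19 alternatives, with adjusted p from 0.0253 to 0.282. A20iKO differed from WT by 0.28 (interval -0.58 to 1.14, edgeR adjusted p = 0.78). From WT+IFNa it differed by -1.19 (interval -2.05 to -0.33, edgeR adjusted p = 0.121). Il15ra was at 3.53, 1.07 and 3.45 CPM in WT, 9.59, 7.42 and 5.94 CPM in WT+IFNa, and 13.5, 3.74 and 7.69 CPM in A20iKO. Each library of both other groups exceeded every WT library, by 1.5 on the log2 scale in WT+IFNa (interval -0.02 to 3.02, edgeR adjusted p = 0.402) and by 1.62 in A20iKO (interval 0.10 to 3.14, edgeR adjusted p = 0.189). In A20iKO the highest Il15ra value was that of replicate 1, which also had the highest stromal marker sum. In WT and WT+IFNa the library highest in stromal markers had instead the lowest Il15ra value, 1.07 and 5.94 CPM. The difference of A20iKO from WT was 0.71 when the library highest in stromal markers was left out of each group. It was 1.08 without A20iKO replicate 1 and 1.66 with the stromal covariate. The part of stromal cells was not tested. Counts of Il15 per count of Il15ra ran from 1.56 to 8.13 in WT, 2.19 to 4.33 in WT+IFNa and 0.544 to 2.64 in A20iKO.

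Il6 and Il10 lay at the low end. Il6 had no count in WT, 2, 0 and 0 counts in WT+IFNa, and 18, 7 and 80 counts in A20iKO, or 2.37, 0.794 and 8.43 CPM. All A20iKO libraries were above all others, and they differed widely among themselves. Pooled over libraries, Il6 was at least 37.2-fold higher in A20iKO than in WT, taking 3 counts over the WT group as the floor, and 49.7-fold higher than in WT+IFNa with a counting interval of 13.4 to 416 that rests on 2 counts. Replicate 3 held 80 of the 105 A20iKO counts, and without it these values were at least 14.0-fold and 18.7-fold. Il6 did not pass the filter on low counts. Without that filter its edgeR adjusted p for A20iKO against WT was 0.0247, in a range of 0.0247 to 0.117 over the 8 alternatives that kept the gene. Against WT+IFNa the edgeR adjusted p was 0.206 without the filter, and 0 of the 8 alternatives called it (0.148 to 0.416). The 7 of these that leave out 1 library kept Il6 only through its A20iKO counts, so they are no separate support. Fits without A20iKO replicate 1 or 3 did not keep it. The highest Il6 value was in A20iKO replicate 3, whose stromal marker sum of 472 CPM was the lowest of the group. The next was in replicate 1, whose sum of 4327 CPM was the highest, and replicate 2, at 785 CPM, had the least Il6. The part of stromal or other cells in the Il6 level was not tested. Il10 had no count in any library, which over the summed counts of each group allows up to 0.109 CPM in WT, 0.122 in WT+IFNa and 0.116 in A20iKO, for counting error only.

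The order of the members by level changed between groups. In WT, Ebi3 was above Il12b, followed by Il15, Il1b, Il18 and Il15ra, whose libraries overlapped from one to the next, and 1 Il1b value also lay within the range of Il12b. In WT+IFNa the order was Il12b, Ebi3 and Il15, followed by Il1b, Il18 and Il15ra, which overlapped. In A20iKO it was Il12b, Il1b, Ebi3 and Il18, each separate from its neighbour, followed by Il15, Il15ra, Il6 and Il12a, which overlapped from one to the next.

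Genes with the most similar course to Il12b over the 9 libraries, by Pearson's r of log2 CPM among 12047 genes, were Ccl5 (r = 0.984), Arpin (r = 0.983) and Trim30c (r = 0.983). Ccl5, a chemokine gene, was at 46.3 ± 7.86 CPM in WT, 238 ± 32.2 in WT+IFNa and 218 ± 38.2 in A20iKO. Arpin and Trim30c averaged only 0.0665 and 0.123 CPM in WT, so their r values rest on few counts there. Those closest to Il15 were B4galt4 (r = 0.952), Sap30 (r = 0.952) and Trafd1 (r = 0.942). Trafd1 was at 139 ± 13.0 CPM in WT, 315 ± 12.7 in WT+IFNa and 190 ± 34.5 in A20iKO. The 9 libraries share the group differences that set these values, and the r values are descriptions.

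Other cytokine genes of the interleukin families were few in these cells: 4 of 34 passed the filter, and 13 had no count in any library. Of the 4 tested, 2 were called higher in WT+IFNa against WT, where 2.4% of all tested genes were called higher and 0.702% lower. In A20iKO against WT 2 were called higher and 1 lower, beside 5.77% and 4.91% of all tested genes. Il1rn, which encodes the IL-1 receptor antagonist, was at 0.0892 ± 0.154 CPM in WT, 2.53 ± 0.776 in WT+IFNa and 22.5 ± 14.4 in A20iKO. It rose in A20iKO, with a pooled ratio to WT of 296 and a counting interval of 81.5 to 2448 that rests on 2 WT counts (edgeR adjusted p = 0.000248). It also rose in WT+IFNa, with a pooled ratio of 35.9 and a counting interval of 9.54 to 303 (edgeR adjusted p = 0.0163), a call that was lost in 5 of 19 alternatives, among them without WT replicate 1 or 3 and without WT+IFNa replicate 2, up to 0.311. Without WT replicate 2, the one WT library with Il1rn counts, the fitted difference has no WT count to rest on. A20iKO was also above WT+IFNa, by 3.14 on the log2 scale (edgeR adjusted p = 0.0274), a call lost in 9 of 19 alternatives and without any one library of either group, up to 0.247. Osm, which encodes oncostatin M of the IL-6 family, rose from 4.04 ± 1.49 CPM in WT to 16.4 ± 5.40 in WT+IFNa (edgeR adjusted p = 0.039) and 13.3 ± 2.99 in A20iKO (edgeR adjusted p = 0.0357), with the call lost in 13 and 12 of 19 alternatives. The first was lost without any one of the 9 libraries (adjusted p up to 0.235 over the alternatives), and the second without any one except WT replicate 1 or WT+IFNa replicate 2 (up to 0.171). Il16 fell from 98.2 ± 18.3 CPM in WT to 34.7 ± 7.27 in A20iKO (log2 -1.5, edgeR adjusted p = 0.000566) and was at 80.4 ± 6.00 in WT+IFNa.

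Of 16 genes for receptors and binding proteins of these cytokines, 14 were tested. In WT+IFNa against WT 1 was called higher, where 2.4% of all tested genes were called higher and 0.702% lower. In A20iKO against WT 3 were called higher and 4 lower, beside 5.77% and 4.91% of all tested genes. The median log2 differences were -0.11 and 0.09. Il18bp, the secreted inhibitor that binds IL-18, had no count in WT and reached 5.42 ± 1.99 CPM in WT+IFNa, at least 49.0-fold higher (edgeR adjusted p = 0.00722), and 4.97 ± 2.55 in A20iKO, at least 43.9-fold higher (edgeR adjusted p = 0.00306), against a floor of 3 counts over the WT group. The WT+IFNa call was lost at 0.075 when the library highest in stromal markers was left out of each group, the highest of 19 alternatives, and held in the other 18. Il1r1, the signalling receptor for IL-1, was at 0.0773 ± 0.0693 CPM in WT and rose to 10.5 ± 5.57 in A20iKO, with a pooled ratio of 147 and a counting interval of 40.3 to 1221 (edgeR adjusted p = 0.00199). The ratio rests on 2 WT counts, and Il1r1 passed the filter on low counts only through its A20iKO libraries. Il12rb2, a chain of the IL-12 receptor, fell from 39.9 ± 10.3 CPM in WT to 7.15 ± 1.66 in A20iKO (log2 -2.47, edgeR adjusted p = 0.000357), and WT+IFNa was between them at 23.3 ± 4.56. Il10ra, the ligand-binding IL-10 receptor chain, fell from 148 ± 19.9 to 74.7 ± 2.83 CPM (log2 -0.98, edgeR adjusted p = 0.00379). A20iKO was also lower than WT+IFNa for Il12rb2 (log2 -1.70, edgeR adjusted p = 0.00849) and Il10ra (log2 -0.85, edgeR adjusted p = 0.0168), and the latter call was lost in 5 of 19 alternatives, without WT+IFNa replicate 1 or 2 or without any one A20iKO library, up to 0.106.

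Of 16 signal transducers described, all tested, 3 were called higher and 1 lower in A20iKO against WT, with a median log2 difference of 0.30. The shares over all tested genes were 5.77% and 4.91%. Jak2, a kinase on the IL-12 receptor, rose in A20iKO, from 108 ± 11.0 to 281 ± 28.3 CPM (log2 1.38, edgeR adjusted p = 7.24e-05). Socs3, which inhibits IL-6 signalling, rose from 26.2 ± 5.23 to 93.6 ± 9.49 CPM in A20iKO (log2 1.83, edgeR adjusted p = 0.000327) and was at 14.3 ± 2.94 in WT+IFNa. Stat5a fell in A20iKO, from 97.0 ± 17.9 to 46.7 ± 4.65 CPM (log2 -1.06, edgeR adjusted p = 0.0056). Irak3, which restrains signalling from IL-1 and Toll-like receptors, rose from 8.05 ± 1.93 to 20.9 ± 1.85 CPM (log2 1.37, edgeR adjusted p = 0.0412) and was at 9.51 ± 2.44 in WT+IFNa. The Irak3 call was lost in 13 of 19 alternatives, without any one of the 9 libraries among them, with adjusted p from 0.0165 to 0.167.

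Of 9 genes that process IL-1 beta and IL-18, all tested, 1 was called higher and 1 lower in A20iKO against WT, with a median log2 difference of 0.34. The shares over all tested genes were 5.77% and 4.91%. Nlrc4, an inflammasome sensor, rose from 14.2 ± 3.38 to 32.9 ± 4.34 CPM (edgeR adjusted p = 0.0265), and Nlrp3, another sensor, fell from 74.7 ± 30.2 to 36.7 ± 11.4 CPM (edgeR adjusted p = 0.0444). These calls were lost in 4 and 10 of 19 alternatives, with adjusted p up to 0.122 and 0.192: that of Nlrc4 without WT replicate 1 or 3 or A20iKO replicate 2 or 3, and that of Nlrp3 without WT replicate 1 or any one WT+IFNa or A20iKO library. Casp1, the enzyme that cuts both precursors, named after its values were seen, was at 46.2 ± 2.19 CPM in WT, 48.8 ± 8.13 in WT+IFNa and 39.4 ± 7.15 in A20iKO.

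Of 21 transcription factors linked to Il12b or Il15, all tested, 4 were called higher in WT+IFNa against WT, and 7 higher and 2 lower in A20iKO against WT, with median log2 differences of 0.31 and 0.50. Over all tested genes 2.4% were called higher and 0.702% lower in WT+IFNa against WT, and 5.77% and 4.91% in A20iKO against WT. Irf7 and Irf1, interferon regulatory factors, rose in WT+IFNa: Irf7 from 9.07 ± 2.52 to 476 ± 56.5 CPM (log2 5.72, edgeR adjusted p = 5.66e-08) and Irf1 from 88.0 ± 4.78 to 251 ± 18 CPM (log2 1.51, edgeR adjusted p = 4.27e-05). Irf7 was at 107 ± 24.0 CPM in A20iKO, higher than WT (log2 3.56, edgeR adjusted p = 1.19e-06) and lower than WT+IFNa (log2 -2.16, edgeR adjusted p = 6.87e-05). Relb, an NF-kappaB subunit of the non-canonical pathway, rose from 37.6 ± 15.1 CPM in WT to 99.1 ± 5.12 in WT+IFNa (log2 1.39, edgeR adjusted p = 0.00423) and 322 ± 6.57 in A20iKO (log2 3.09, edgeR adjusted p = 4.57e-06). Nfkb2, the precursor of its partner, rose in A20iKO from 57.0 ± 3.54 to 161 ± 13.3 CPM (log2 1.5, edgeR adjusted p = 0.000159). Bcl3, a nuclear cofactor of NF-kappaB, rose from 43.2 ± 3.08 to 188 ± 42.1 CPM (log2 2.12, edgeR adjusted p = 2.77e-05). In WT+IFNa, Irf9, an interferon regulatory factor, rose from 101 ± 25.3 to 233 ± 32.8 CPM (log2 1.20, edgeR adjusted p = 0.00897). The 2 factors that fell in A20iKO against WT were Irf5 and Irf4, both interferon regulatory factors. Irf5 was at 408 ± 121 CPM in WT, 324 ± 28.5 in WT+IFNa and 141 ± 18 in A20iKO, lower than WT (log2 -1.54, edgeR adjusted p = 0.000256) and lower than WT+IFNa (log2 -1.20, edgeR adjusted p = 0.00274). Irf4, named after its values were seen, fell from 157 ± 40.9 to 58.7 ± 15 CPM (log2 -1.42, edgeR adjusted p = 0.00207).

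**Figure D4:**
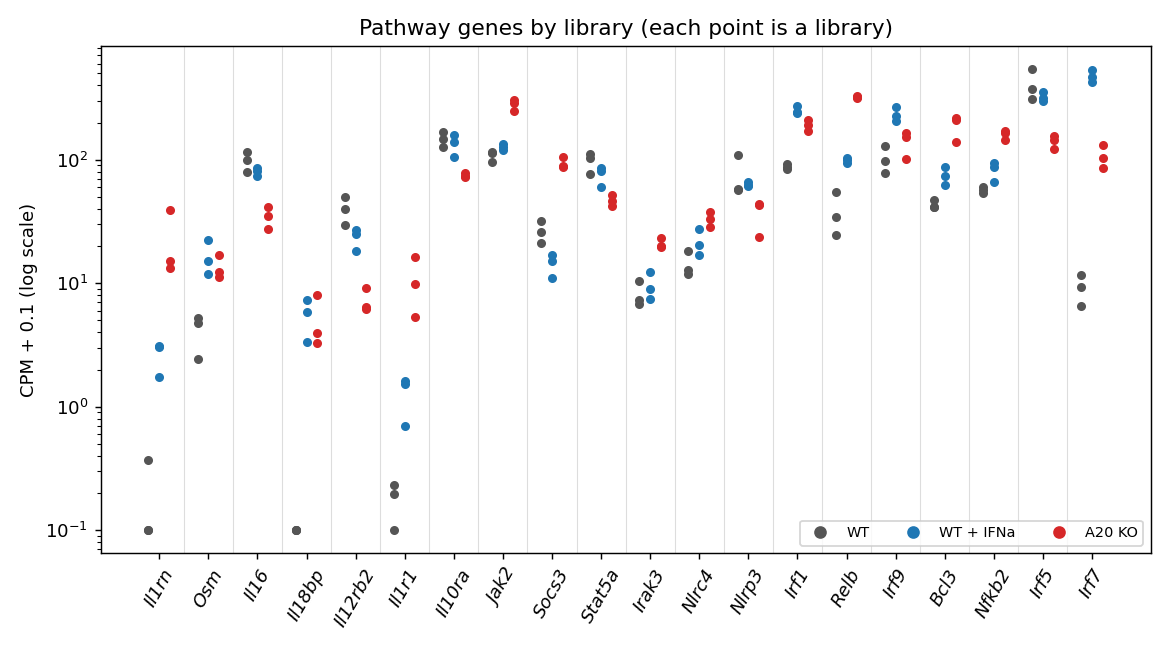
Levels of the named pathway genes by library (CPM plus 0.1, log axis), coloured by group. Il1rn and Il1r1 are highest in A20iKO, Irf7 is highest in WT+IFNa, and Il12rb2 and Il16 are lowest in A20iKO.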

How the data were processed

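The authors deposited raw read counts per gene symbol for each library, made from a QuantSeq 3′ tag kit per the labels' protocols. The submitters' processing notes name GRCm39 as the build and, as tools, STAR 2.7.10b, featureCounts 2.0.6, fastp 0.23.1 and Bowtie2. Their roles, the annotation, strand setting and treatment of multiply mapped reads were not stated. Counts of overlapping genes are therefore uncertain (Il18 with Bco2 and Tex12, Il27 with Apobr, Ebi3 with Gm16712, Il1b with Il1bos). Il1bos itself had no count in any library.

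Low genes were removed by filterByExpr of edgeR (at least 10 counts, at least 15 in total), leaving 13251 genes with 99.83% of counts. All 9 libraries entered 1 edgeR 4.0.16 quasi-likelihood fit (R 4.3.3, TMM, group only, 6 residual degrees of freedom, common coefficient of variation 0.554), checked on simulated data. DESeq2 1.42.0, limma 3.58.1 voom, other scalings and filters, a replicate block, a stromal covariate and left-out libraries were alternatives. Leaving out the library of highest stromal level in each group was chosen after seeing the data. Exact Poisson-based intervals at 95% accompany pooled ratios.

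Members, lists and tests were chosen with earlier results of these data known. All members were named, and from each pathway list up to 4 called genes per comparison with the smallest p, plus 3 genes most like Il12b and Il15. 1 signal transducer is not reported here and was left out of its list. Groups came from titles. Per the design text each group came from 3 mice, but whether a library is 1 mouse was not stated, so p-values measure the spread between libraries, which may be technical. Library pairs within a group differed by a chi-square of at least 14.4 per degree of freedom and were not repeat reads.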

Additional observations from a re-analysis of the deposited data

How the results depend on the processing

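Il12b was called higher against WT in both groups, and Il1b in A20iKO against WT, under all 19 alternatives run. Counts of genes called against 411 (WT+IFNa against WT), 1416 (A20iKO against WT) and 723 (A20iKO against WT+IFNa) were 705 and 1143 in the WT+IFNa against WT and the A20iKO against WT+IFNa comparisons with DESeq2, and 775, 2129 and 1255 with the stromal covariate. Leaving out 1 library gave 283 to 420, 919 to 1372 and 400 to 875 genes. Scaling by library size alone moved the median log2 difference of all genes to -0.15, -0.03 and 0.12, and the split of higher and lower calls from 318 and 93 to 286 and 184 in WT+IFNa against WT and from 271 and 452 to 370 and 379 in A20iKO against WT+IFNa. Members called were 1, 2 and 1 in the same order of comparisons. In WT+IFNa against WT there were 2 with DESeq2 and with the stromal covariate, in A20iKO against WT 4 without a filter and with limma voom, and in A20iKO against WT+IFNa 2 with DESeq2, limma voom, only the 2 groups compared or the stromal covariate, and 0 without the library of highest stromal level in each group. Leaving out 1 library gave 1 to 1, 2 to 3 and 0 to 1 members. Uncalled differences changed sign for Ebi3 in A20iKO against WT (-0.0069 with library size alone, -0.0233 with only the 2 groups, -0.003 with a replicate block, and -0.19 to 0.24 leaving out 1 library), for Ebi3 against WT+IFNa (-0.37 to 0.027 leaving out 1 library) and for Il15ra against WT+IFNa (-0.12 with limma voom, -0.0875 with the block, -0.42 to 0.46 leaving out 1 library, and -0.57 without the 3 libraries of high stromal level). The cause was not tested.

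Replicate numbers showed no pairing of the libraries: same-numbered libraries had correlations of their deviations from -0.37 to 0.24, and 2 of 9 correlated best with a library of their own number. The libraries highest in stromal markers, WT replicate 2, WT+IFNa replicate 3 and A20iKO replicate 1, correlated with each other at 0.26, 0.35 and 0.36. Such differences could mask a pairing, so the check cannot exclude it. A replicate block gave 298, 1075 and 535 genes and 1, 2 and 1 members called. At this depth Il10 was not detectable, and Il27, Il6 and Il12a rest on few counts.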
